A study of Mus musculus with 4 samples.

Results

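The cilium and axoneme genes are 63 of the 15305 gene rows in a table of read counts from single mouse brain cells. They were chosen by symbol alone, with no measured value. The symbols are those of intraflagellar transport proteins (Ift), Bardet-Biedl syndrome proteins (Bbs), cilia and flagella associated proteins (Cfap), axonemal dynein chains (Dnah, Dnai and Dnal), tektins (Tekt), sperm associated antigens (Spag), radial spoke proteins (Rsph) and tectonics (Tctn), with Ak7 and Foxj1. By role, 26 of them serve transport into and within the cilium: 3 subunits of complex IFT-A, 15 of IFT-B, 5 of the BBSome and 3 tectonics. The other 37 are 6 axonemal dynein chains, 6 radial spoke proteins, 1 tektin, 18 Cfap genes, 4 Spag genes, Foxj1 and Ak7. A choice by symbol also takes in genes with roles outside the cilium, such as Spag9, a scaffold for kinases of the JNK pathway.

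The cells came from Penk-Cre Ai9 mice, labelled WT. In these mice, Cre made under control of Penk, the gene of the opioid precursor proenkephalin, switches on the red reporter tdTomato, so a cell is marked if it or an ancestor had expressed Cre. The tissue, from subventricular zone and striatum, was made into single cells that were sorted into plates, 1 cell per well. Dataset A held tdTomato+/CD11b- cells (41 cells, 1 plate), in which the microglial surface protein CD11b was gated out. Dataset B held all tdTomato+ cells (41 cells, 4 plates). Each dataset has 2 labelled samples, one of neuroblasts and one of quiescent neural stem cells, but the columns of the table give only dataset, plate and well, so no cell could be tied to a labelled sample. Animal numbers and ages are not given in the sources used here.

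Cells were therefore divided by a rule on 2 other genes. Enpp2-rich cells had 1% or more of their counts in Enpp2, which encodes the secreted enzyme autotaxin (32 cells, 16 per dataset). Sox11 cells had 10 or more counts of Sox11, a transcription factor of immature neurons, and were not Enpp2-rich (41 cells, 16 in dataset A and 25 in dataset B). The remaining 9 cells, all of dataset A, are called the rest, a mixed class. Of 14 astroglial and quiescent stem cell markers, 6 of these cells had 5 to 11 at 10 counts or more and 3 had none. In 1 of the 3, oligodendrocyte markers summed to 428941 of each 1000000 counts, and 2 of the 9 cells had only 58 and 207 genes at 10 counts or more. Summing the counts of each class in each dataset gave 5 pools of 16184388 to 51285241 counts. Total counts per cell ran from 530630 to 7765650 in dataset A and from 1235278 to 3339591 in dataset B. The median number of genes with 10 or more counts per cell was 840.5 and 1087.5 in Enpp2-rich cells of datasets A and B, 1218.5 and 1249 in Sox11 cells, and 1005 in the rest.

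The Enpp2-rich class went with markers of choroid plexus epithelium, of which 13 of 16 were detected more widely in it. The summed level of these markers ran from 15393 to 698242 CPM (counts scaled to 1000000 per cell or pool) in its cells of dataset A and from 21656 to 174979 CPM in dataset B. In Sox11 cells it ran from 0 to 791605 CPM in dataset A and from 0 to 1.67 CPM in dataset B, and in the rest from 0.515 to 21.6 CPM. Most of the sum in the Enpp2-rich pools was Ttr, at 265167 and 78074 CPM in datasets A and B. The next highest markers there were Ecrg4 at 2208 CPM in dataset A and Clic6 at 2104 CPM in dataset B. The high end in Sox11 cells came from dataset A, where 1 cell lay just under the Enpp2 threshold, at 0.999% of its counts. It had 12 of the 16 choroid plexus markers at 10 counts or more and 78.2% of its counts in Ttr. Another Sox11 cell of dataset A, with Enpp2 at 0.424%, had 11 of these markers and 13 neuroblast markers at 10 counts or more. Ttr reached 10 counts in 12 Sox11 cells of dataset A and in 0 of dataset B. Of 15 neuroblast markers, 13 were detected more widely in Sox11 cells. Among astroglial and quiescent stem cell markers, 1 of 14 (Apoe) was detected more widely in Enpp2-rich cells. Of the ependymal list, 5 of 13 genes had a row, and none was detected more widely in either class. Dynlrb2 was at 10 counts or more in 11 Enpp2-rich and 0 Sox11 cells, Mia in 9 and 1, Nek5 in 4 and 0 and Hydin in 2 and 1, while Tppp3 was never at that level. The part of other cell types in the values below was not tested.

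A cilium is a microtubule axoneme that grows from a basal body. Intraflagellar transport trains carry cargo along it, IFT-B with kinesin towards the tip and IFT-A with dynein back, while the BBSome moves membrane proteins and the transition zone gates the base. Primary cilia need this transport machinery alone, whereas motile cilia add dynein arms, radial spokes, a central pair and proteins inside the doublet microtubules. Foxj1, a forkhead factor, drives the motile programme, and RFX factors act on both kinds of cilium through a palindromic promoter element, the X-box. In the forebrain ventricles, ependymal cells and choroid plexus epithelium carry tufts of cilia, while neural stem cells, neurons and astrocytes carry a primary cilium.

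Promoter windows show which of these genes carry letters of an X-box. RefSeq promoters (build GRCm38.p6, 250 bases before to 50 after the start of transcription) were found for 44 of the 63 genes. The X-box was searched on both strands as GTNNCC and GGNAAC with 1 to 3 bases between them, and as its other strand. It was present in 11 of the 44 genes (25.0%), against 673 of 27025 genes with a promoter in the table (2.49%). Of the transport genes, 8 of 20 (40.0%) had a match, and of the axoneme and other genes 3 of 24 (12.5%). The windows below belong to genes that reached 10 counts in Enpp2-rich cells only, and then to Ift22, which reached it in all 3 classes. Capitals mark the X-box match.
Cfap298 at chr16:90934897-90934925, minus strand: tttgactGTTGCCCCTGGCAACagccact
Cfap298 at chr16:90935017-90935044, minus strand: ggttttgGTTGCCCGGGCAACagctact
Cfap206 at chr4:34730209-34730236, minus strand: gcgttccGTTTCCACGGTTACgcgactg
Ift56 at chr6:38381484-38381511, plus strand: cggcggcGTTGCCGTGGAAACggagctc
Tctn2 at chr5:124598680-124598707, plus strand: attggagGTTACCATGGCTACtggtcct
Ift22 at chr5:136908080-136908107, plus strand: tgtcaggGTTTCCTGGGCTACtgcgcag
Ift22 at chr5:136908110-136908137, plus strand: gttcccgGTCGCCGTGGAAACtgaccag

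Windows that begin before the start were chosen for printing, and Cfap298 and Ift22 each hold a pair of them. Spag6l, also at 10 counts in Enpp2-rich cells only, has a match that begins after the start and is not printed. In Cfap298 the matches begin 69 and 188 bases before the start, in Ift22 33 and 63, in Cfap206 23, in Ift56 33 and in Tctn2 62. Both matches of Cfap298 and that of Ift56 contain GTTGCC, the RFX core motif searched by itself below. A match describes these letters and does not show that a factor binds there.

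**Figure D1:**
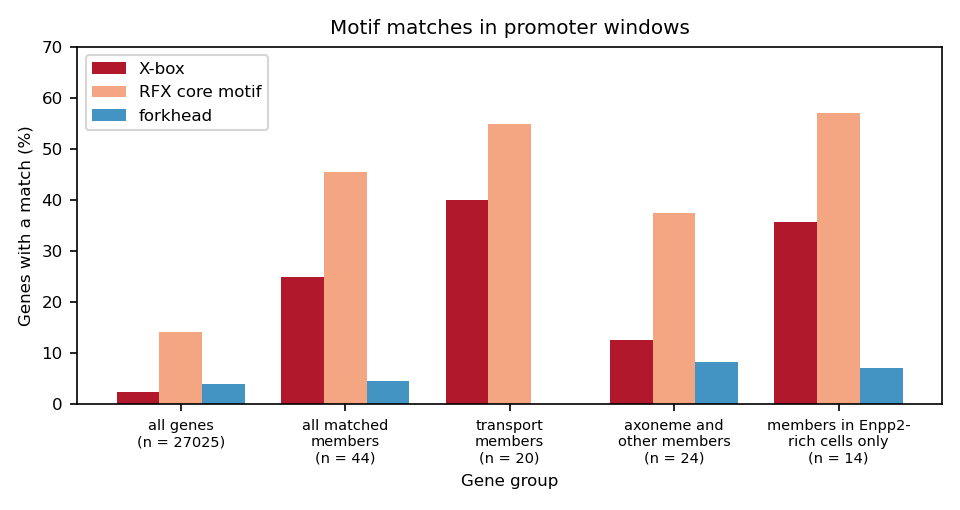
Share of genes (%) with at least 1 match of the X-box, the RFX core motif or the forkhead motif in a promoter window of 300 bases, for all genes with a promoter in the table and for groups of the cilium and axoneme genes. The X-box bars rise from 2.49% of all genes to 25.0% of the matched cilium and axoneme genes, while the forkhead bars of these groups are at 4.05% and 4.55%. For transport genes, axoneme and other genes, and genes in Enpp2-rich cells only, the forkhead values are 0 of 20, 2 of 24 (8.33%) and 1 of 14 (7.14%).

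The RFX core motif GTTGCC, which can lie inside an X-box, was present on either strand in 20 of the 44 genes (45.5%), against 14.1% of all genes with a promoter. The forkhead motif TGTTTAC was present in 2 of the 44 (4.55%, Ak7 and Cfap20), against 4.05%. Among the 14 matched genes that reached 10 counts in Enpp2-rich cells only, 5 (35.7%) held an X-box, namely Cfap298, Cfap206, Ift56, Tctn2 and Spag6l. The bar plot of motif shares gives the same values by group. Base composition of the promoters was not matched in these comparisons.

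In the counts, 61 of the 63 genes were present, and Ift70a1 and Cfap96 were at 0 in every cell. Cfap251, Cfap74 and Cfap97d2 never reached 10 counts in a cell, which left 58 that did, of which 27 did so in 5 cells or more. Of all 15305 rows, 1997 were at 0 in every cell, 10638 reached 10 counts in a cell and 5793 did so in 5 cells or more. A gene was called detected more widely in a class when its share of cells at 10 or more counts was higher by 20 percentage points or more in both datasets. By this rule 4 genes, all of the axoneme group, were detected more widely in Enpp2-rich than in Sox11 cells: Cfap298, Cfap126, Cfap68 and Rsph9. Over all rows the rule called 2.27%, and 5.99% of rows at 10 counts in 5 cells or more. None of the 63 was detected more widely in Sox11 cells, where the rule called 2.81% of all rows and 7.42% of the rows at 10 counts in 5 cells or more. In dataset B alone, 16 genes met the difference of 20 points in Enpp2-rich cells (5.97% of all rows) and 2, Cfap20 and Spag9, in Sox11 cells (6.20%). In dataset A alone the numbers were 4 (3.58% of all rows) and 0 (6.23%). With the Enpp2 threshold at 0.5%, chosen after seeing the data, they were 5 with Rsph1 (2.47%) and 1, Spag9 (3.12%).

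**Figure D2:**
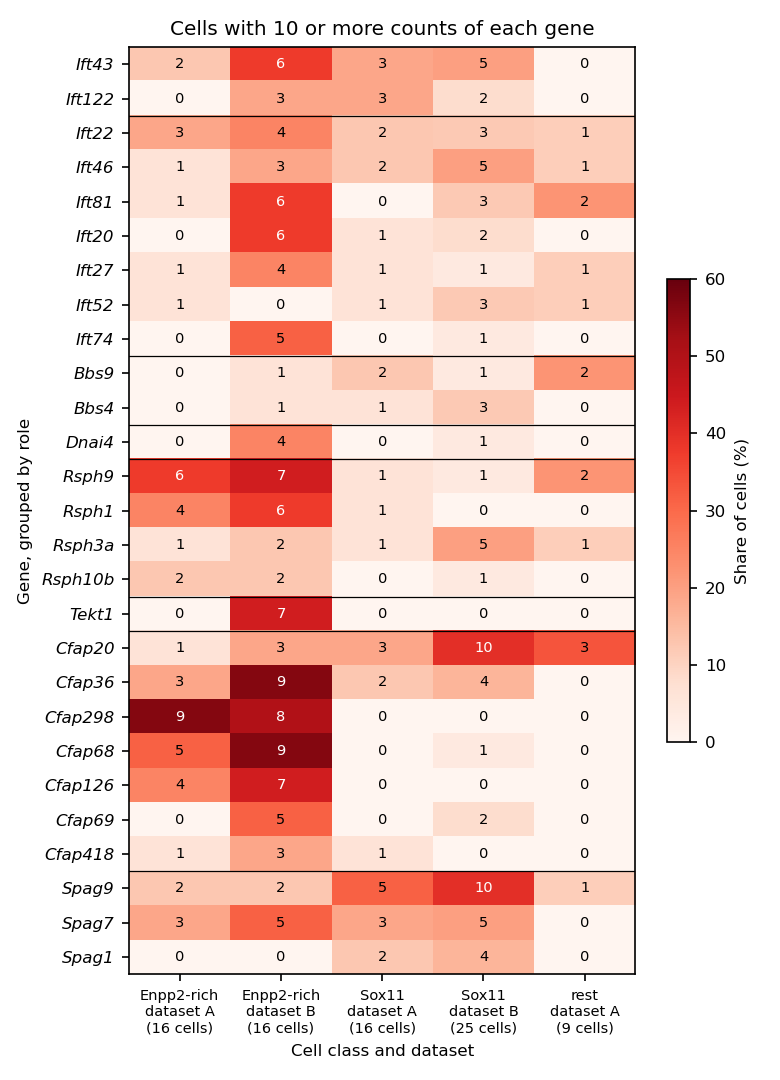
Number of cells (printed) and share of cells (%, colour) with 10 or more counts, for the 27 cilium and axoneme genes that reached this level in 5 cells or more. Columns are the 5 pools and black lines separate roles. Cfap298, with 9 and 8 Enpp2-rich cells and none elsewhere, stands beside Spag9 and Cfap20, each with 10 Sox11 cells of dataset B.

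Of the 58 genes that reached 10 counts, 18 (31.0%) did so in Enpp2-rich cells only, against 8.94% of all such rows. For Sox11 cells only, the number was 9 (15.5%), against 22.8% of all such rows. A lone cell carried 4 of the 18 and 6 of the 9. The 18 were 14 genes of the axoneme group and 4 of the transport group (Bbs5, Ift25, Ift56 and Tctn2). The 9 were Bbs2, Ift88, Tctn1, Tctn3, Cfap210, Dnah8, Dnal1, Rsph3b and Spag1. Counting every pair of a gene and a cell at 10 counts or more, Enpp2-rich cells held 46.9% of those of transport genes and 66.1% of those of the axoneme group, against 37.0% of those of all rows. Of 116 levels of 10 CPM or more of a gene in a pool, 87 had more than 50% of their counts in 1 cell. The same share over all rows was not computed, so this cannot be read as a trait of these genes.

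The test between classes used edgeR's quasi-likelihood method on the 5 pools, with the dataset as replicate and Benjamini-Hochberg adjustment over 10748 genes. No gene of the 58 tested passed an adjusted p of 0.05 between Enpp2-rich and Sox11 cells, where edgeR called 0 of all genes (0%). At an unadjusted p under 0.05 there were 7, of which 6 were higher in Enpp2-rich cells, against 9.08% of all genes in either direction and 3.72% in that direction. DESeq2, the other tool run, called 23 of 61, 16 of them higher in Enpp2-rich cells, against 19.1% of all genes. The fitted median log2 difference was 2.47 over the 58 genes and -0.84 over all genes, and under library size alone these were 1.98 and -1.35. With counts under 3 per class set to a floor of 3 on the scale of library size, the median was 1.56 over the 58 genes and -1.45 over all genes. On that scale it was 0.0026 over 25 transport genes (13 higher in Enpp2-rich and 12 higher in Sox11 cells) and 4.37 over 33 genes of the axoneme group (25 and 8). Counts varied widely between the pools of a class, with a common dispersion of 4.17 in edgeR, and at this spread a gene that did not pass is not shown to be alike in the classes.

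Among the Cfap genes, Cfap298, which takes part in the assembly of dynein arms, was the most widespread in Enpp2-rich cells. It had 10 or more counts in 9 of 16 cells of dataset A and 8 of 16 of dataset B, together 53.1% (exact 95% binomial interval 34.7% to 70.9%). No Sox11 cell (0 of 41, upper limit 8.604%) and no cell of the rest (0 of 9, upper limit 33.6%) did so. The pools held 32.1 and 46.0 CPM in Enpp2-rich cells of datasets A and B, with 2904 counts in all, against 1 count over both Sox11 pools and 0 in the rest. Only Enpp2-rich cells reached 10 counts, yet both Enpp2-rich pools also held cells at 0, where the classes overlapped. The fitted difference missed the threshold in edgeR's test (adjusted p = 0.6397).

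Cfap126, a protein of the axoneme and of basal body positioning, had 10 or more counts in 4 and 7 Enpp2-rich cells of datasets A and B, and in no other cell. Its pools were at 42.2 and 220 CPM, with 9322 counts, against 1 count in Sox11 cells and 0 in the rest (edgeR adjusted p = 0.2701). Among the cells with 10 or more counts, levels ran from 29.3 to 1235 CPM. Both datasets therefore showed the gene in a minority of Enpp2-rich cells at widely different levels.

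Cfap68, a protein inside the doublet microtubules, was at 203 and 357 CPM in the Enpp2-rich pools of datasets A and B. It was at 0.272 and 12.4 CPM in the Sox11 pools and at 0 in the rest. It had 10 or more counts in 5 and 9 Enpp2-rich cells and in 1 Sox11 cell, which gave 98.8% of the counts of its class. The log2 difference between Enpp2-rich and Sox11 cells was 6.13 (SE 2.49, edgeR adjusted p = 0.4013). In the GENCODE M39 annotation its exons overlap those of Alg9 and Fdxacb1 on the opposite strand, and whether the counting used strand is not given in the sources used here. Alg9 was at 10 counts in no Enpp2-rich cell and Fdxacb1 in 1. Such overlaps are common here, since 39 of the 63 genes share exon bases with another gene and 19 of them with a gene that has a row.

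Other Cfap genes had other distributions. Cfap36, whose product binds the ciliary GTPase Arl3, had 10 or more counts in 3 and 9 Enpp2-rich and 2 and 4 Sox11 cells of datasets A and B. Its pools were at 70.8 and 594 CPM, at 9.92 and 90.05 CPM and, in the rest, at 0.0618 CPM (log2 difference between Enpp2-rich and Sox11 cells 3.08, SE 2.06, edgeR adjusted p = 0.6397). Dataset B was above dataset A in both classes. Its exons overlap those of Ppp4r3b on the opposite strand, which was at 10 counts in 2 of the 12 Enpp2-rich and 4 of the 6 Sox11 cells with Cfap36. Cfap20, a protein of the inner junction of the doublet, leaned to Sox11 cells of dataset B, with 10 or more counts in 10 of 25 cells and 701 CPM. Its other pools were at 61.3 CPM in Sox11 cells of dataset A, 46.4 and 86.9 CPM in Enpp2-rich cells and 357 CPM in the rest. The Sox11 pools thus lay on either side of the rest, and the log2 difference between Enpp2-rich and Sox11 cells was -1.88 (SE 1.77, edgeR adjusted p = 0.6837).

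Cfap70, which is associated with outer dynein arms, was seen in 4 Enpp2-rich cells of dataset B only, at 237 CPM in that pool and 0 counts in Sox11 cells and the rest. Over both datasets this was at least 2909-fold higher in Enpp2-rich than in Sox11 cells, with a floor of 3 counts over the class (edgeR adjusted p = 0.3926). A lone cell gave 53.1% of the counts of Cfap70. Cfap206 and Cfap300 had the opposite distribution, with 3 and 2 Enpp2-rich cells of dataset A (111 and 68.9 CPM) and 0 counts in those of dataset B. Sparse genes were thus carried by different datasets within the Enpp2-rich class. The other Cfap genes that reached 10 counts did so in 2 to 7 cells.

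The radial spokes, the T-shaped regulators between the doublets and the central pair, were led by the head proteins Rsph9 and Rsph1. Rsph9 was at 422 and 313 CPM in the Enpp2-rich pools of datasets A and B, at 10.5 and 41.4 CPM in the Sox11 pools and at 53.2 CPM in the rest. It had 10 or more counts in 6 and 7 Enpp2-rich cells, 1 and 1 Sox11 cells and 2 cells of the rest. Both Enpp2-rich pools were above the other 3, and the log2 difference from Sox11 cells was 4.67 (SE 1.93, edgeR adjusted p = 0.4134). Its exons overlap those of Mrps18a on the opposite strand, which was at 10 counts in 12 Enpp2-rich cells, 5 of them among the 13 with Rsph9.

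Rsph1 was at 191 and 266 CPM in the Enpp2-rich pools, with 4 and 6 cells at 10 counts or more. It was at 29.9 CPM in Sox11 cells of dataset A, nearly all from 1 cell, and at 0 in those of dataset B and in the rest (log2 difference between Enpp2-rich and Sox11 cells 4.48, SE 2.71, edgeR adjusted p = 0.6397). That Sox11 cell of dataset A held 877 counts of Rsph1 and 308 of Rsph9. Its Enpp2 share was 0.999%, just under the class threshold, and it had 12 of 16 choroid plexus markers at 10 counts or more. The Enpp2-rich pools of Rsph1 did not overlap with the others. Rsph4a, the third head protein here, had 2 Enpp2-rich cells of dataset B and 0 counts in Sox11 cells and the rest. Rsph10b had 2 and 2 Enpp2-rich cells and 1 Sox11 cell. Rsph3a, of the spoke stalk, did not share this distribution, with 1 and 2 Enpp2-rich cells, 1 and 5 Sox11 cells and 1 cell of the rest. Rsph3a and Rsph3b are near-identical copies, so the split of reads between them is uncertain.

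**Figure D3:**
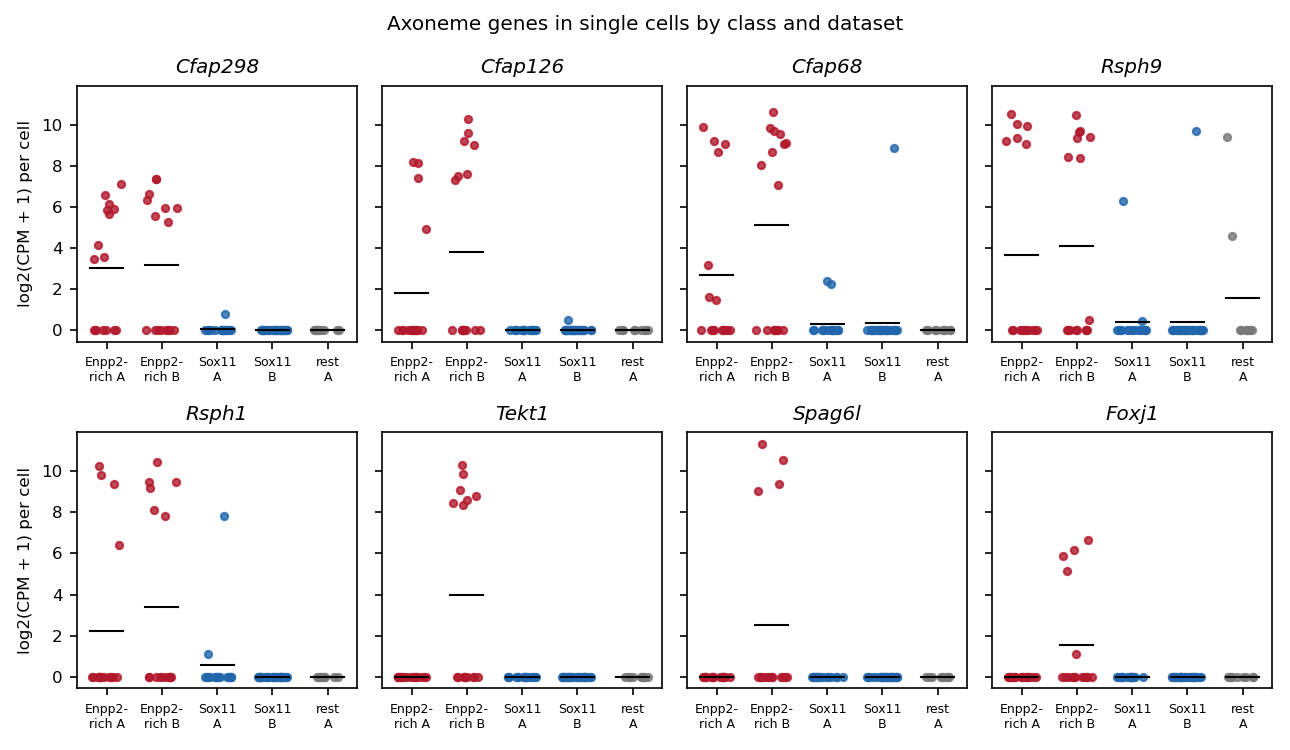
Level of 8 axoneme genes in each cell, as log2(CPM + 1), by class and dataset. Each point is a cell and the line is the mean of the points. Cfap298, Cfap126, Cfap68, Rsph9 and Rsph1 have points well above 0 in Enpp2-rich cells of both datasets, and Tekt1, Spag6l and Foxj1 in those of dataset B only.

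Tekt1 encodes a tektin, a filament inside the doublet microtubules, and Spag6l a protein of the central pair. Tekt1 was at 268 CPM in Enpp2-rich cells of dataset B, where 7 of 16 cells had 10 or more counts, and at 0 counts in the other 4 pools. Spag6l was at 362 CPM in the same pool, in 4 cells, and at 0 counts in the others. Over both datasets they were at least 3295-fold and 4441-fold higher in Enpp2-rich than in Sox11 cells, with a floor of 3 counts per class. Dataset B alone carried these ratios, and a lone cell gave 26.4% of the counts of Tekt1 and 55.6% of those of Spag6l. Neither passed in edgeR's test (adjusted p = 0.3464 and 0.2545), in which the Enpp2-rich pool of dataset A stood at 0 as well. The plot of axoneme genes by cell shows this division between the datasets.

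Foxj1 itself was seen in few cells. It had 10 or more counts in 4 of 16 Enpp2-rich cells of dataset B, with 80, 204, 82 and 194 counts, and 3 counts in another. All other cells of the table had 0 counts of Foxj1. That pool was at 16.3 CPM. Over both datasets Foxj1 was at least 200-fold higher in Enpp2-rich than in Sox11 cells with a floor of 3 counts over the class (edgeR adjusted p = 0.6397). Ak7, an adenylate kinase of motile cilia, reached 10 counts in 1 Enpp2-rich cell of dataset B, which held all 1125 counts of the class, against 1 count in Sox11 cells.

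Axonemal dynein chains were each detected in 1 to 5 cells. Dnai4, an intermediate chain, had 10 or more counts in 4 Enpp2-rich cells of dataset B (158 CPM) and 1 Sox11 cell of dataset B (0.916 CPM). The light chain Dnal4 had 1 Enpp2-rich cell in each dataset, at 18.4 and 17.3 CPM in the pools. Dnai2, an outer arm intermediate chain, and the inner arm heavy chain Dnah2 had 1 Enpp2-rich cell each. The outer arm heavy chain Dnah8 and the light chain Dnal1 had 1 Sox11 cell of dataset A each. With so few cells no direction can be read for the dynein chains as a group.

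Of the other Spag genes, Spag9 and Spag1 were at 10 counts in more Sox11 than Enpp2-rich cells, and Spag7 was present in both classes. Spag9 had 10 or more counts in 5 and 10 Sox11 cells, 2 and 2 Enpp2-rich cells and 1 cell of the rest. Its pools were at 249 and 326 CPM, 64.0 and 104 CPM, and 1.61 CPM (log2 difference between Enpp2-rich and Sox11 cells -1.17, SE 1.90, edgeR adjusted p = 0.8764). Both Sox11 pools were above both Enpp2-rich pools. Its exons overlap those of Nme1 on the opposite strand, which was at 10 counts in 6 of the 15 Sox11 and 2 of the 4 Enpp2-rich cells with Spag9. Spag1, a factor of dynein arm assembly, had 2 and 4 Sox11 cells at 49.1 and 66.3 CPM, and 3 counts in Enpp2-rich cells. In the Sox11 pools of datasets A and B, a lone cell gave 98.3% and 61.3% of its counts. Spag7 was at 76.2 and 206 CPM in Enpp2-rich cells and 145 and 160 CPM in Sox11 cells, but at 0.124 CPM in the rest.

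Transport genes were spread over the classes. In IFT-A, the complex of the return journey, Ift43 had 10 or more counts in 2 and 6 Enpp2-rich cells and 3 and 5 Sox11 cells of datasets A and B. Its pools were at 39.5 and 193 CPM and at 48.6 and 109 CPM, with 0 counts in the rest, so the ranges of the classes overlapped (log2 difference 0.95, SE 2.43, edgeR adjusted p = 0.9592). Ift122 was at 0 and 232 CPM in the Enpp2-rich pools and at 6.70 and 2.79 CPM in the Sox11 pools. The Sox11 value came from 5 cells at 11.7 to 91.0 CPM, and the Enpp2-rich value from 3 cells at 599 to 2207 CPM. Ift140 had 3 Sox11 cells, 1 cell of the rest and 0 counts in Enpp2-rich cells.

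In IFT-B, the complex of the outward journey, the 4 most widespread genes were detected in both classes. Ift22 was at 77.5 and 118 CPM in Enpp2-rich pools, 14.8 and 49.0 CPM in Sox11 pools and 72.4 CPM in the rest, and Enpp2-rich pools were above the others (log2 difference from Sox11 cells 2.28, SE 2.57, edgeR adjusted p = 0.7621). Ift46 was at 19.6 and 125 CPM against 71.1 and 95.6 CPM, with overlapping ranges. Ift81, which with Ift74 forms the tubulin-binding module, was at 21.4 and 106 CPM against 0 and 95.0 CPM. Ift74 itself was at 0 and 303 CPM in the Enpp2-rich pools, 76.3% of it from 1 cell, and at 0 and 7.86 CPM in the Sox11 pools. Ift20, which also sits at the Golgi, was at 0 and 69.3 CPM against 1.16 and 42.9 CPM. In Sox11 cells of dataset B, a lone cell gave 91.3% of the counts of Ift81, whose level was 8.67 CPM without it, and for Ift20 the values were 87.6% and 5.56 CPM. As deposited, dataset B was above dataset A in both classes for each of these 5 genes.

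Ift80, an IFT-B subunit that forms part of its periphery, was the member with the lowest p in the other direction. It was at 450 CPM in the rest, all from 1 cell, at 42.6 and 0 CPM in the Sox11 pools and at 0.0243 and 0.174 CPM in the Enpp2-rich pools (edgeR unadjusted p = 0.01202 and adjusted p = 0.3035 between Enpp2-rich cells and the rest). The BBSome subunits reached 10 counts in 1 to 6 cells each. Bbs9 was at 0.0487 and 37.7 CPM in Enpp2-rich pools, 75.4 and 10.4 CPM in Sox11 pools and 219 CPM in the rest. Bbs4 was at 0 and 97.0 CPM against 79.8 and 97.7 CPM, with 0 in the rest. Bbs7 and Bbs5 had 2 Enpp2-rich cells each, and Bbs7 also 1 Sox11 cell. The tectonics of the transition zone had 2 Enpp2-rich cells for Tctn2 and 1 Sox11 cell each for Tctn1 and Tctn3.

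Against the rest, 0 of 58 genes passed for Enpp2-rich cells (0.0186% of all genes, namely Ighm and Rev3l, both lower in Enpp2-rich cells and named after their values were seen) and 0 of 58 for Sox11 cells (0% of all genes). At an unadjusted p under 0.05 in edgeR there were 7 genes for Enpp2-rich cells, 6 of them higher there (against 9.58% of all genes in either direction and 6.08% in that one). For Sox11 cells there were 6, all higher there (against 9.29% and 6.56%). DESeq2 called 35 (25.6% of all genes) and 23 (30.8%). Between Sox11 cells and the rest, the fitted median log2 difference was 3.21 over the 58 genes and 5.34 over all genes, while with the floor of 3 counts, on the scale of library size, it was 5.25 over the 40 genes above the floor in either class and 3.37 over 9985 such genes. Cfap68, Cfap36, Rsph1 and Spag7 were among the lowest p in the first comparison, and Spag7, Cfap36, Ift43, Cfap68 and Spag9 in the second. All 6 of these genes were at 0 to 26 counts in the rest, a pool of 9 cells. With the Enpp2 threshold at 5%, which moves Enpp2-rich cells into the other classes, the log2 difference between Sox11 cells and the rest turned negative for Cfap36, Ift43 and Cfap68. The rest is a lone pool, assumed in the fit to vary like the others. It held Cfap20 at 357 CPM in 3 cells, Cfap410 at 261 CPM in 1 cell and Ift140 at 107 CPM in 1 cell, all in dataset A.

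Per cell, the number of cilium and axoneme genes at 10 counts or more ran from 0 to 7 (median 3) in Enpp2-rich cells of dataset A and from 1 to 25 (median 7.5) in those of dataset B. In Sox11 cells it ran from 0 to 9 in both datasets, with medians of 2 and 3, and in the rest from 0 to 5 (median 2). After each cell had been thinned to 500000 counts, which none was short of, the medians were 3, 7, 2, 3 and 2. The Sox11 cell of dataset A with 9 of these genes, and with 11 choroid plexus markers, had 4 after thinning. Relative to 1000 genes at 10 counts in the same cell, the medians were 4.08 and 7.29 in Enpp2-rich cells, 1.58 and 2.85 in Sox11 cells and 1.68 in the rest. The median was thus higher in Enpp2-rich than in Sox11 cells of each dataset, with overlapping ranges of the numbers per cell. Averaged over the 58 genes, the share of cells at 10 counts was 6.47% and 16.5% in Enpp2-rich pools, 4.31% and 6.14% in Sox11 pools and 3.45% in the rest. Over 10638 rows that reached 10 counts in a cell, the shares were 8.87%, 11.9%, 11.6%, 12.5% and 7.79%.

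**Figure D4:**
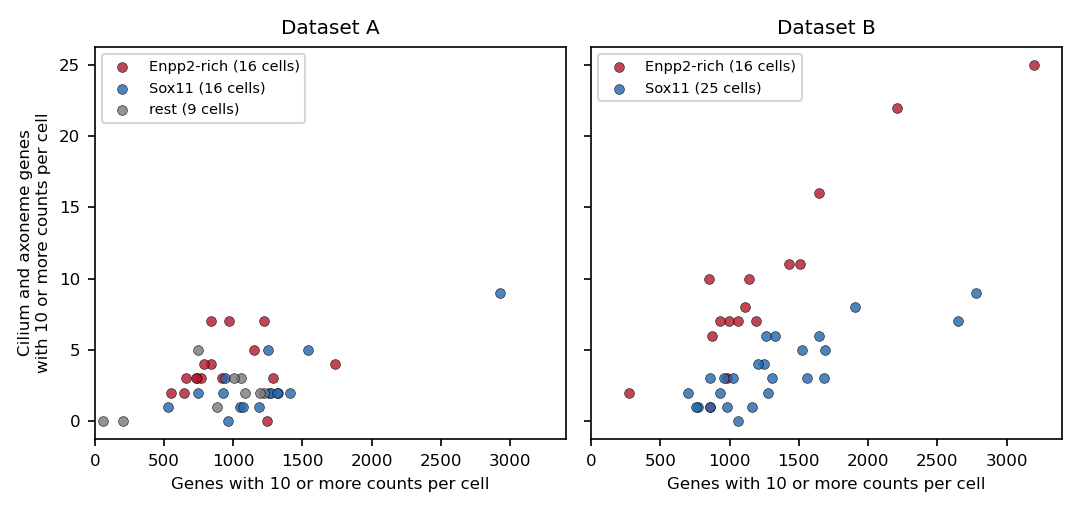
Number of cilium and axoneme genes with 10 or more counts in each cell, against the number of all genes with 10 or more counts in that cell, by dataset. Each point is a cell, coloured by class. Of the Enpp2-rich cells of dataset B, 3 stand at 16, 22 and 25 genes, above the highest Sox11 cell at 9.

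The summed level of the 63 genes was 1773 and 5869 CPM in the Enpp2-rich pools of datasets A and B, 1344 and 2303 CPM in the Sox11 pools and 1705 CPM in the rest. Within the axoneme group it was 1536 and 4298 CPM, 861 and 1587 CPM, and 679 CPM. Within the transport group it was 238 and 1571 CPM, 483 and 717 CPM, and 1026 CPM. In the axoneme group the Enpp2-rich pool was the higher of the classes in each dataset. In the transport group the Enpp2-rich pool was below the Sox11 pool in dataset A and above it in dataset B. In the rest 1 cell gave 64.1% of the counts of the 63 genes and 81.0% of those of the transport group. Without it these levels were 696 and 221 CPM. Without the top cell of each pool, the transport level in dataset A was 186 CPM in Enpp2-rich cells and 346 CPM in Sox11 cells. These cells were left out after seeing the data. More cells with a gene and more RNA per cell cannot be told apart in such pools.

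In dataset B the classes were uneven over plates, so counts per cell were also read within plates. On plate PL4 the median was 7 in 10 Enpp2-rich cells (1 to 11) and 1.5 in 4 Sox11 cells (1 to 2). On plate P3 it was 9 in 4 Enpp2-rich cells (2 to 16) and 3 in 3 Sox11 cells (1 to 3), and on plate P1 it was 23.5 in 2 Enpp2-rich cells (22 and 25) and 5 in 12 Sox11 cells (1 to 9). Plate P2 held 6 Sox11 cells and no Enpp2-rich cell. Enpp2-rich cells had the higher median on each of the 3 plates that held both classes. Their median number of all genes at 10 counts was also higher, at 989.5, 1348 and 2702 on PL4, P3 and P1. In Sox11 cells of these plates it was 808.5, 981 and 1543.5. Relative to 1000 such genes, the medians were 7.11, 7.29 and 8.89 in Enpp2-rich cells and 1.73, 2.93 and 3.26 in Sox11 cells. Cfap298 was at 10 counts in 5 of 10 Enpp2-rich cells on PL4, 2 of 4 on P3 and 1 of 2 on P1, and in no Sox11 cell of any plate. Cfap126 was at that level in 3, 2 and 2 Enpp2-rich cells of the same plates and in no Sox11 cell, and Rsph9 in 5, 1 and 1 with 1 Sox11 cell on P1.

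The 3 cells richest in these genes were Enpp2-rich cells of dataset B. Their Enpp2 shares were 1.25%, the lowest of the class, 4.70% and 8.05% of counts, so the first lies near the threshold of 1% and the first and second would leave the class at a threshold of 5%. The first, a cell of plate P1, had 25 of them at 10 counts or more, 15 of the axoneme group and 10 of transport, with 80 counts of Foxj1, 1030 of Tekt1 and 1218 of Spag6l. The second, also of P1, had 22 (13 and 9), with 204 counts of Foxj1, 927 of Tekt1 and 0 of Spag6l. The third, of plate P3, had 16 (11 and 5), with 82, 547 and 948 counts. These cells thus carried 3 of the 4 Foxj1 detections. They also had 12, 11 and 11 of 16 choroid plexus markers at 10 counts or more. Of the ependymal markers each had 1, Dynlrb2, which is also on the list of further motile axoneme genes. They were among the cells with most genes at that level, 3195, 2209 and 1643. Without them, the genes detected more widely in Enpp2-rich cells were the same 4.

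Other cilium genes, from lists that leave out the symbols above, showed where the pattern extended. Of 71 further genes of the motile axoneme and its assembly, 19 had a row and 2 (against 2.27% of all rows) were detected more widely in Enpp2-rich cells. These were Drc7, of the nexin-dynein regulatory complex, at 325 and 484 CPM in the Enpp2-rich pools, and Nme5, of the radial spokes, at 74.7 and 251 CPM, each in 12 Enpp2-rich cells and in no other cell at 10 counts. Dynlrb2, a dynein light chain, and Mlf1 had 11 Enpp2-rich cells each and no Sox11 cell. Other genes of the list went the other way, with Gas8, of the same regulatory complex as Drc7, in 1 Enpp2-rich and 9 Sox11 cells, Nme7 in 0 and 3, and Dnaaf2, a dynein assembly factor, in 0 and 2. Of the 19 genes, 16 were tested and 0 passed in edgeR (5 at an unadjusted p under 0.05, against 9.08% of all genes). With counts under 3 per class at the floor, their median log2 difference was 9.62 (11 higher in Enpp2-rich and 5 higher in Sox11 cells), and the fitted median was 10.12.

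The other lists did not show this. Of 31 further transport and BBSome genes, 23 had a row and 0 were detected more widely in either class, with a median log2 difference at the floor of -0.36 over 22 genes (fitted 0.47). Arl3 had 19 Enpp2-rich and 18 Sox11 cells, while the BBSome subunit Bbip1 had 7 and 14 and the kinesin Kif3a 5 and 11. Of 33 transition zone and basal body genes, 27 had a row and 0 were detected more widely, with a median at the floor of -0.97 over 26 genes (fitted -0.52). Tmem107, of the transition zone, was in 10 Enpp2-rich and 2 Sox11 cells, and Pcm1, of centriolar satellites, in 1 and 11. Of 22 regulators of multiciliation, 12 had a row. Rfx7 was detected more widely in Sox11 cells (0 and 10 cells), and Rfx3, a factor that binds the X-box, was in 14 Enpp2-rich and 18 Sox11 cells. The median of the 9 tested was -0.92 at the floor (fitted -1.13). Of 14 genes of the ciliary hedgehog pathway, 6 had a row and 0 were detected more widely, with a median at the floor of -5.89 over 5 genes (fitted -6.84), and none of the genes of these 4 lists passed in edgeR.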

How the data were processed

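Single cells of 2 sorts (datasets A and B, 82 cells) were measured by RNA sequencing after template switching and PCR preamplification with oligo dT, per the labels' protocols. The authors deposited a table of raw read counts per gene and cell. The submitters' processing notes name FastQC 0.12.1, STAR 2.7.10b, featureCounts and Subread 2.1.1, and the builds GRCm39 and mm10 with no role. The annotation and strand setting of the counting are not given in the sources used here, and PCR copies of a molecule are counted as separate reads. Counts rank genes by length as well as abundance, so levels are compared between cells and not between genes.

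Here 63 rows were selected by symbol, and cells were classed by Enpp2 (1% of counts) and Sox11 (10 counts). The 2 cells that met both rules were counted as Enpp2-rich, no doublet caller was run, and no cells had identical values. Counts were summed by class and dataset into 5 pools. Pools were compared with edgeR 4.0.16 in R 4.3.3 (filterByExpr, TMM factors, quasi-likelihood test, Benjamini-Hochberg threshold 0.05), and with DESeq2 1.42.0 as an alternative. On simulated data the edgeR test found changed genes at a low spread between pools and none at a high one. The 2 datasets serve as replicates, so p-values measure the spread between these sorts, whose animals are not given. Intervals are exact Clopper-Pearson at 95% and cover counting error only. Each dataset is 1 sort, which pairs its pools, and deviations of the Enpp2-rich and Sox11 pools correlated at 0.224 over 10748 genes. Pandas 2.3.3 and matplotlib 3.10.9 made the tables and figures. Motifs were searched in RefSeq promoters of GRCm38.p6, a build that need not be that of the counting.

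The genes described in full were, per role, the 4 at 10 counts in the most cells, the 5 with the lowest p in each comparison, Foxj1 and Ak7, and others are named after their values were seen. The genes, the cell classes and the lists were chosen with earlier results of these data known. Alternatives were other scalings, filters, thresholds and classes, thinned cells, a replicate block, and leaving out pools or cells. The cell division list had 0 of 12 genes in the table and was not analysed here.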

Additional observations from a re-analysis of the deposited data

Results flagged for a closer look

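For 3 transport genes the difference between Enpp2-rich and Sox11 cells went in opposite directions in the 2 datasets, measured as the share of cells with 10 or more counts. For Ift43 the share in Enpp2-rich cells minus that in Sox11 cells was -6.25 percentage points in dataset A and 17.5 in dataset B, a gap of 23.75. For Ift122 it was -18.75 and 10.75, a gap of 29.5, and for Ift20 -6.25 and 29.5, a gap of 35.75. These gaps were not tested.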

How the results depend on the processing

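No cilium or axoneme gene passed in any of the edgeR alternatives, which at the spread between these pools says nothing about stability, while DESeq2 called 23 between Enpp2-rich and Sox11 cells, 35 between Enpp2-rich cells and the rest and 23 between Sox11 cells and the rest. With the dataset as a replicate block in edgeR, which pairs the pools, 0 passed in each comparison, and the block changed no call of these genes. It gave 3, 3 and 0 of them at an unadjusted p under 0.05. No share of all genes stands beside these numbers here, so they are not read further. Over all genes, edgeR's 0, 2 and 0 calls became 347, 197 and 182 with cells thinned, 204, 129 and 123 with no filter, 161, 72 and 50 with library size alone, 137, 153 and 93 without the Sox11 pool of dataset A, and 37, 152 and 39 without that of dataset B. DESeq2 gave 2540, 3410 and 4105. The number of genes detected more widely in Enpp2-rich cells was 3 to 5 over the other thresholds and classes, and 4 to 16 when either dataset was left out. In Sox11 cells the number was 1 (Spag9), in place of 0, with Enpp2 at 5%, with Enpp2 at 0.5%, with Sox11 at 100 counts, and with the cells that met both rules left out, and 0 to 2 when either dataset was left out. The median number of these genes per Sox11 cell, averaged over datasets, was 3.5 at 1 count or more, in place of 2.5. In the rest the median, likewise averaged over datasets, was 12 with Enpp2 at 5%, in place of 2. The rest has no cell of dataset B in the main division. At 5% it takes in the cells of dataset B with Enpp2 at 1.25%, 4.70% and 4.77%, which held 25, 22 and 11 of these genes. At that Enpp2 threshold the log2 difference between Sox11 cells and the rest was -1.03 for Cfap36, -1.10 for Ift43 and -5.14 for Cfap68. Beyond such moves of cells between classes, the cause of these changes was not tested. Without the pool of the rest, no comparison with the rest could be fitted. The alternatives with Enpp2 at 0.5%, without the 3 cells richest in these genes, without the deepest cell for the summed level, and without the cell with the most counts of these genes in each pool, were chosen after seeing the data.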

Other observations

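Lists of markers of other cell types showed the following between Enpp2-rich and Sox11 cells, as values only. The oligodendrocyte list (7 of 10 genes with a row, 6 tested), the vascular list (5 of 10, 2 tested) and the list of striatal projection neurons (10 of 10, 7 tested) had median log2 differences of -4.12, 3.64 and -2.57 at a floor of 3 counts per class, and of -3.80, 4.14 and -5.41 as fitted. Ppp1r1b, a phosphatase inhibitor of striatal projection neurons, was at 10 counts or more in 19 Enpp2-rich cells, 3 Sox11 cells and 1 cell of the rest, and it was the gene of that list detected more widely in Enpp2-rich cells. Mog, of myelin, was at that level in 0 Enpp2-rich and 10 Sox11 cells. The microglial list (13 genes with a row, 11 tested) had a median of -3.96 at the floor and -3.12 as fitted. The ependymal list, of which 4 genes were tested, had a median of 5.30 at the floor and 5.83 as fitted, the astroglial and quiescent stem cell list -0.55 and -0.25, the choroid plexus list 7.53 and 7.77, and the neuroblast list -10.19 and -9.26. No gene of these lists passed in edgeR's test.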
